A study of Mus musculus with 9 samples.

Results

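Proliferating cells were 446 of the 196925 kidney cells that passed quality filters, 0.226% of them. A cell was kept with at least 1000 UMIs (unique molecular identifiers, each standing for 1 captured RNA molecule), at least 500 detected genes and at most 15% of its UMIs from mitochondrially encoded genes, and was called proliferating when its UMIs of Mki67, Top2a, Cenpf and Birc5 summed to 3 or more. The levels of these 4 genes therefore chose the cells and are described without a test. The cells came from 9 male C57BL/6 mice, 3 in each of 3 groups, which entered the study at 6 weeks of age and adapted for 1 week. Control mice received intraperitoneal saline. AKI-CKD mice, a model of the passage from acute kidney injury to chronic kidney disease, received cisplatin at 8 mg/kg each week for 4 weeks. AKI-CKD + EGT mice received the same cisplatin and, from 3 days before it until the end, the antioxidant ergothioneine (EGT) at 0.5 mg/mL in the drinking water. Kidneys were taken after 8 weeks, 1 droplet-based single-cell RNA library was made per mouse, and the labels name no genetic modification.

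The kidney tubule is a tissue of slow turnover. After injury, surviving epithelial cells of the proximal tubule, the segment that reabsorbs most of the filtrate and takes up cisplatin, are known to lose part of their specialised programme and to re-enter the cell cycle. A cycling cell copies its DNA in S phase and then prepares and carries out division in G2 and M. S phase genes are driven largely by E2F factors. Many G2/M genes instead carry CCAAT boxes, bound by NF-Y, and a CHR element (cell cycle genes homology region). The CHR element is bound by the DREAM complex, which holds these genes silent outside the cycle. Damaged DNA can stop the cycle through p53, whose classical target Cdkn1a encodes p21, an inhibitor of the cyclin-dependent kinases. Mki67 encodes Ki-67, a coat protein of mitotic chromosomes; Top2a encodes the topoisomerase that untangles replicated DNA; Cenpf encodes a kinetochore protein; and Birc5 encodes survivin, a subunit of the chromosomal passenger complex.

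The promoters of the 4 genes that defined the cells are shown because they carry the letters by which cell cycle genes are recognised, and they do so unequally. Each window is 300 bases of the RefSeq sequence of GRCm38.p6, from 250 before to 50 after the annotated start, printed 5′ to 3′ on the strand of the gene. The deposited counts were made on another build, GRCm39, so the coordinates below hold for GRCm38.p6 alone. Capitals mark the CHR letters TTTGAA or TTCGAA and the CCAAT letters, each searched on both strands.
Mki67 (chr7:135716330-135716629, minus strand): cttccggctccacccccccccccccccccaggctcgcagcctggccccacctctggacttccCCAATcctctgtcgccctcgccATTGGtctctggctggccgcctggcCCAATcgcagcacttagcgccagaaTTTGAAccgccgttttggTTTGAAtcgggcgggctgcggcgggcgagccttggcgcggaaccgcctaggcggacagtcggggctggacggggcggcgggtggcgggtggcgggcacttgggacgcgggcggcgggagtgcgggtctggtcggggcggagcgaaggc
Top2a (chr11:99024140-99024439, minus strand): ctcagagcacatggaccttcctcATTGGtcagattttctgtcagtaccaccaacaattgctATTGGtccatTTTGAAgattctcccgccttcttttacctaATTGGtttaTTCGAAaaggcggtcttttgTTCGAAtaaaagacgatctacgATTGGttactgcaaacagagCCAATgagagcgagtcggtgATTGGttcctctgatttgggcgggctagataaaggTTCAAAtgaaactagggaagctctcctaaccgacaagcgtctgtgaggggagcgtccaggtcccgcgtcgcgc
Cenpf (chr1:189688037-189688336, minus strand): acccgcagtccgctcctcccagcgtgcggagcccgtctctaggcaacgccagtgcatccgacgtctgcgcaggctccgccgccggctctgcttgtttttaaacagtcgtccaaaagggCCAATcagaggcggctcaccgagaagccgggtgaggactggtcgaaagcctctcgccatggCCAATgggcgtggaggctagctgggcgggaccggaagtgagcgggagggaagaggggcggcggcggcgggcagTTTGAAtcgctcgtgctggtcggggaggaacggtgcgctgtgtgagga
Birc5 (chr11:117848987-117849286, plus strand): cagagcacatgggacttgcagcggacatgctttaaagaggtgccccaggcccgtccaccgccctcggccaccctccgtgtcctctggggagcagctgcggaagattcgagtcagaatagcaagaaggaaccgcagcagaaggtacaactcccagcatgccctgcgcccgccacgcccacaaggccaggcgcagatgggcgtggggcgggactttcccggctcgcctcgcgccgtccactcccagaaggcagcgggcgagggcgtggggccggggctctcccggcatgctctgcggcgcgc
The Mki67 window held 2 CHR and 3 CCAAT matches, the Top2a window 4 and 6, and the Cenpf window 1 and 2. The Birc5 window held neither in these letters. Both motifs stood together in 3 of the 4 windows, against 8.61% of all 27025 genes with a window. Of the G2/M list used below, 39 of 48 genes matched a window and 26 of them (66.7%) held both. Of the S phase list, 27 of 36 genes matched and 4 (14.8%) held both, whereas 9 (33.3%) held the E2F letters TTTCCCGC or TTTGGCGC, found in 1.80% of all genes and in 1 of the 39 G2/M genes. These matches describe letters in a window and say nothing of which factor was bound.

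The 9 libraries held between 70106161 and 101525691 UMIs and 216680 barcodes in all, and the filter left more cells than the study states it retained with the same limits. Proliferating cells held a median of 5353.5 UMIs and 1974 genes, against 2710 UMIs and 1146 genes in the other cells, and a median of 2.30% mitochondrial UMIs against 3.46%. Between 3583 and 7810 barcode names were shared by each of the 36 pairs of libraries, but at most 0.0827% of the shared names had the same UMI total in both. AKI-CKD + EGT mouse 3 stood apart: it gave 15 proliferating cells, the fewest of all mice, with a median of 2985 UMIs, and the mitochondrial limit removed 27.7% of its barcodes, against 17.0% in Control mouse 1 and 0.909 to 7.94% in the other libraries. With no such limit its share of proliferating cells was 0.0629%. Without the limit the share differed by 0.0405 percentage points for AKI-CKD minus Control and by -0.108 for AKI-CKD + EGT minus AKI-CKD. With the limit these differences were 0.0398 and -0.110. The cause of the loss was not tested. Levels are given as CPM, the share of a gene in all UMIs of the cells summed, on the usual CPM scale.

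The 4 genes were not equally good at finding the cells. Top2a had a UMI in 336 of the 446 cells (75.3%), Birc5 in 322 (72.2%), Mki67 in 313 (70.2%) and Cenpf in 223. In the other cells Top2a was detected in 0.885%, Birc5 in 0.329%, Cenpf in 0.143% and Mki67 in 0.140%. All 4 genes were seen in 104 proliferating cells, 3 in 149, 2 in 138 and a single one in 55. Just inside the limit lay 94 cells with 3 UMIs of the 4 genes, and just outside it lay 256 cells with 2.

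Genes that the rule did not use showed the same cells to be in cycle. In cells with no UMI of the 4 genes, the S phase list of 36 genes (DNA replication and nucleotide synthesis, among them the Mcm helicase, Pcna, Tyms and Rrm2) summed to 239 CPM and the G2/M list of 48 genes (mitotic kinases, cyclins and spindle proteins, among them Cdk1, Ccnb1 and Plk1) to 188 CPM. Cells with 2 UMIs stood at 729 CPM for S phase and 1161 CPM for G2/M. Cells with 3 UMIs, the lowest that were counted, stood at 1511 and 2436 CPM, and cells with 10 or more at 2862 and 7283 CPM. Both lists thus stood higher in each class of more rule UMIs, and the G2/M list overtook the S phase list from 2 UMIs on. When each cell was thinned to 2000 UMIs so that depth was equal, 86.3% of the 393 proliferating cells that reached this depth had an S phase UMI and 92.4% a G2/M UMI, against 35.8% and 29.1% of the other cells; before thinning the shares were 95.1% and 97.3% against 47.8% and 40.4%.

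**Figure D1:**
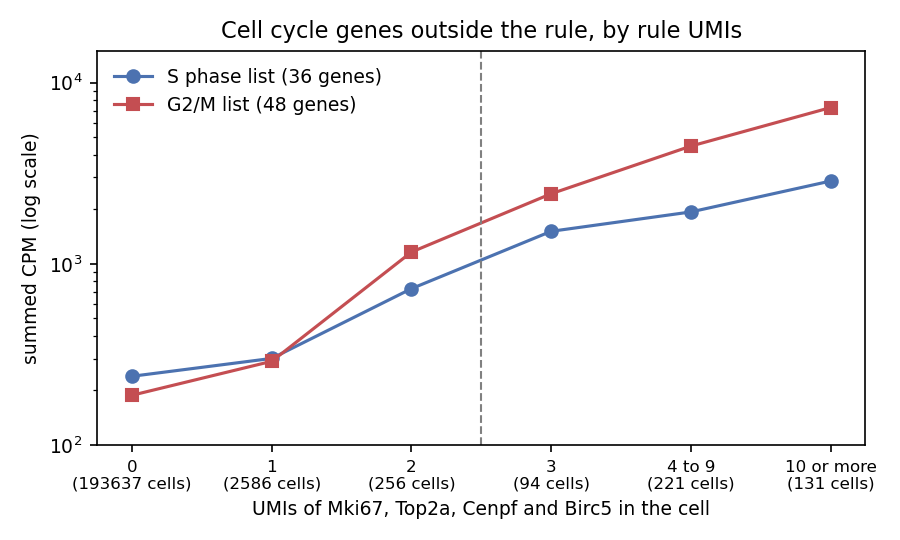
Summed CPM of the S phase list (circles, 36 genes) and the G2/M list (squares, 48 genes), on a log scale, in cells grouped by their UMIs of Mki67, Top2a, Cenpf and Birc5; the number of cells stands under each class and the dashed line marks the limit of 3 UMIs. Both lists stand at 188 to 239 CPM in cells with none, and at 2862 CPM (S phase) and 7283 CPM (G2/M) in cells with 10 or more.

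Most proliferating cells carried RNA of both phases. An S phase or G2/M UMI was present in 442 of the 446 cells and both in 416; 349 cells held more G2/M than S phase UMIs, 80 held more S phase UMIs and 17 held equal numbers. The 4 rule genes are themselves known to peak in G2 and M.

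Cells in which Cenpf was the only rule gene were an exception. There were 23 of them, all PT-like, and together their S phase and G2/M genes summed to 477 CPM, against 8493 CPM in the 391 cells with 2 or more of the rule genes. One such cell held 55 Cenpf UMIs, and the 23 cells held 32.0% of all Cenpf UMIs of the proliferating cells. Of these cells 15 lay in Control mice, 5 in AKI-CKD mice and 3 in AKI-CKD + EGT mice. The label therefore holds for the population by its S phase and G2/M genes but not for these cells. The shares, the fits of proliferating and PT-like proliferating cells and the Cenpf levels were recomputed for cells with 2 or more rule genes. This choice was made after the values were seen. The phase sums, the ratios to other PT-like cells and the comparison of changes between the PT-like populations were not recomputed and include these cells.

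The share of proliferating cells was compared between groups to ask whether the cisplatin model or EGT was accompanied by more or less cell cycling. In Control mice the share was 0.265% (61 of 22985 cells, 95% Wilson interval 0.207 to 0.341%), 0.277% (76 of 27463, 0.221 to 0.346%) and 0.163% (40 of 24534, 0.120 to 0.222%). In AKI-CKD mice it was 0.151% (35 of 23146, 0.109 to 0.210%), 0.347% (67 of 19295, 0.274 to 0.441%) and 0.326% (76 of 23298, 0.261 to 0.408%). In AKI-CKD + EGT mice it was 0.279% (48 of 17196, 0.211 to 0.370%), 0.129% (28 of 21753, 0.0891 to 0.186%) and 0.0869% (15 of 17255, 0.0527 to 0.143%). The highest share was that of AKI-CKD mouse 2 and the lowest that of AKI-CKD + EGT mouse 3, but all groups overlapped, and within each group at least 1 mouse lay far from the other two. The intervals cover counting error only.

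Control mice had a mean share of 0.235% ± 0.0626, AKI-CKD mice one of 0.275% ± 0.108 and AKI-CKD + EGT mice one of 0.165% ± 0.101 (SD, n = 3 each). AKI-CKD exceeded Control by 0.0398 percentage points (two-sided exact permutation test, p = 0.6) and AKI-CKD + EGT lay below AKI-CKD by a difference of -0.110 percentage points (two-sided exact permutation test, p = 0.2), and over the 3 groups together the exact permutation p was 0.371. With 3 mice against 3 the smallest p that this test can give is 0.1. Neither difference could be told from the spread between mice by this test, although the difference with EGT was slightly larger in size than the SD of either group. When 1 mouse was left out, the first difference ranged from 0.00366 (without AKI-CKD mouse 2) to 0.102 (without AKI-CKD mouse 1) and was 0.00382 without Control mouse 3, and the second ranged from -0.172 (without AKI-CKD mouse 1) to -0.0710 (without mouse 3 of the EGT group). With cells thinned to 2000 UMIs they were 0.00451 and -0.0545. Counting only cells with 2 or more rule genes, the shares were 0.213, 0.244 and 0.143% in Control mice, 0.130, 0.327 and 0.292% in AKI-CKD mice, compared with 0.262, 0.110 and 0.0580% in AKI-CKD + EGT, in the same order of mice. A share of cells can move with the number of proliferating cells or with the recovery of all other cells, which cannot be told apart here.

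**Figure D2:**
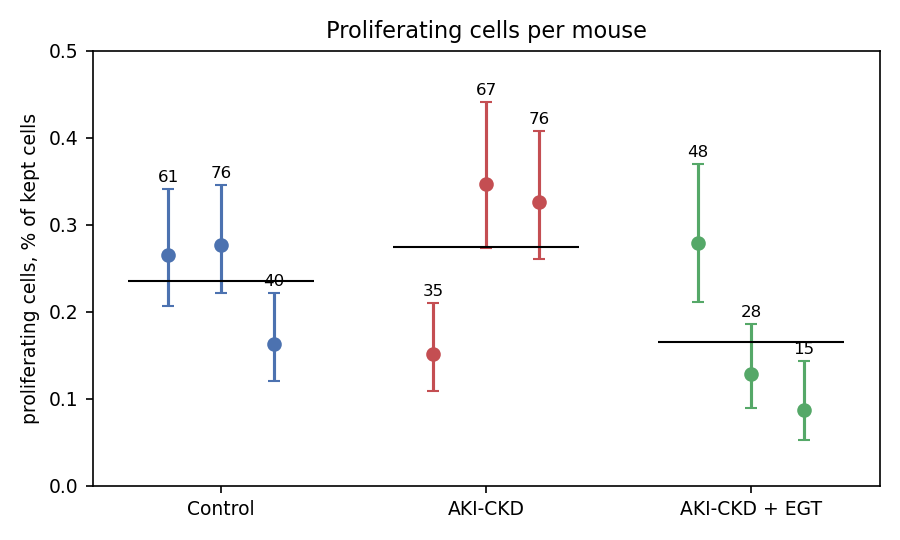
Proliferating cells as a percent of the kept cells of each mouse (points, with 95% Wilson intervals and the number of proliferating cells), with the mean of each group as a horizontal line. The groups overlap: Control spans 0.163 to 0.277%, AKI-CKD 0.151 to 0.347% and AKI-CKD + EGT 0.0869 to 0.279%.

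The balance of phases did not separate the groups either. The S phase list summed to 1564, 2417 and 2438 CPM in the proliferating cells of the Control mice, 1816, 2635 and 2225 CPM in AKI-CKD mice and 3170, 1855 and 1690 CPM in AKI-CKD + EGT. The G2/M list summed to 4731, 6380 and 4784 CPM, then 4072, 5334 and 4787 CPM, then 6708, 6895 and 4568 CPM. The ratio of S phase to G2/M CPM averaged 0.406 ± 0.0926 for Control, 0.468 ± 0.0242 for AKI-CKD and 0.371 ± 0.102 for AKI-CKD + EGT (SD, n = 3 each), and in the other cells of all mice it lay between 0.991 and 1.47. The groups overlapped in both lists and in their ratio, with exact permutation p-values of 0.7, 0.6 and 0.4 for AKI-CKD against Control and 0.9, 0.3 and 0.3 for AKI-CKD + EGT against AKI-CKD.

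The lineage of each proliferating cell was read from marker lists that hold none of the 4 rule genes, and a class is called "-like" because it rests on markers alone. Cells like the proximal tubule (PT) made up 366 of the 446 proliferating cells (82.1%) and 87.5% of all kept cells. Distal-like cells, of the thick ascending limb, distal convoluted tubule and collecting duct, made up 30 and Myeloid-like cells 16. Of the rest, 4 cells were T/NK-like, 2 Endo-like, 2 Podocyte-like, 1 Stromal-like and 1 B-like, 15 carried markers of more than 1 lineage and 9 carried too few markers to be assigned. No proliferating cell was found among 15 neutrophil-like or 21 erythroid-like cells, which allows shares of up to 20% and 14.3%.

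Within the lineages, 0.212% of PT-like cells (366 of 172321, 95% Wilson interval 0.192 to 0.235%) and 0.301% of distal-like cells (30 of 9968, 0.211 to 0.429%) were proliferating. The corresponding share of Myeloid-like cells was 1.63% (16 of 979, 1.01 to 2.64%). It lay above the PT-like share in all 9 mice, although each mouse contributed only between 1 and 5 such cells. T/NK-like cells stood at 0.786% (4 of 509, 0.306 to 2.00%), with 3 of the 4 cells from AKI-CKD mouse 2. For Endo-like cells it was 0.123% (2 of 1632, 0.0336 to 0.446%). The intervals of the rarer classes are wide, and cells of 1 mouse are not independent replicates.

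**Figure D3:**
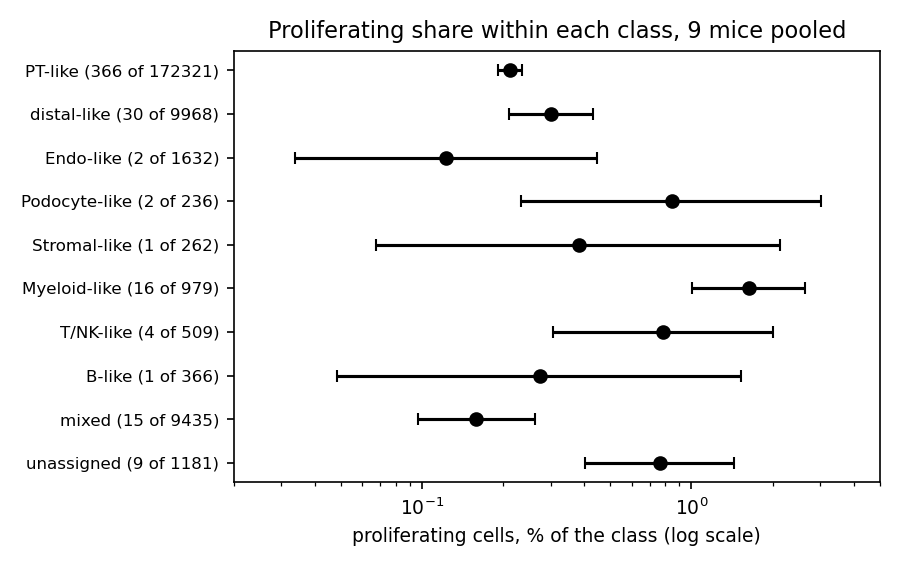
Proliferating cells as a percent of each marker-defined class, on a log scale, with the cells of all 9 mice pooled; bars are 95% Wilson intervals and the counts stand beside each class. Myeloid-like cells stand at 1.63%, above the PT-like 0.212% and the distal-like 0.301%, with intervals that do not meet those of these 2 classes.

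Among PT-like cells the proliferating share was 0.252, 0.233 and 0.161% in Control (51, 56 and 35 cells), 0.149, 0.329 and 0.284% in AKI-CKD (31, 54 and 61 cells) and 0.289, 0.137 and 0.0699% in AKI-CKD + EGT (43, 25 and 10 cells). AKI-CKD mouse 2 was again the highest and AKI-CKD + EGT mouse 3 the lowest, and the groups overlapped. The exact permutation p was 0.6 for AKI-CKD against Control and 0.3 for AKI-CKD + EGT against AKI-CKD, and 0.9 for both after Benjamini-Hochberg adjustment over 6 lineage tests. Among distal-like cells it was 0.577, 0.712 and 0.0877% in Control mice, 0.0801, 0.548 and 0.431% in AKI-CKD mice, compared with 0.0921, 0.0837 and 0.0950% in AKI-CKD + EGT, where each mouse had a single such cell (exact permutation p = 0.5 and 0.4, adjusted 0.9 for both). By their leading markers, 14 of the 30 distal-like cells pointed to the thick ascending limb, 8 to the distal convoluted tubule, 6 to principal cells and 2 to intercalated cells.

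Pooled over mice, 23 of the 27 distal markers had a lower CPM in the distal-like proliferating cells than in other distal-like cells and 4 a higher one, and of the 15 myeloid markers 9 were lower and 6 higher in the Myeloid-like cells. In the distal-like cells Umod, the major urinary protein made by the thick ascending limb, stood at 1271 CPM against 2915 CPM in other distal-like cells, the thiazide-sensitive transporter Slc12a3 at 1154 against 2412 CPM, and the water channel Aqp2 at 165 against 1473 CPM. The calcium-binding protein gene Pvalb stood at 606 against 422 CPM and Wfdc15b at 1742 against 1590 CPM. In the Myeloid-like cells the complement gene C1qa stood at 1142 against 2621 CPM and the lysozyme gene Lyz2 at 746 against 3299 CPM. The chemokine receptor Ccr2 stood at 258 against 142 CPM and the dendritic cell receptor Clec9a at 82.9 against 25.3 CPM, resting on 28 and 9 UMIs. These levels carry no test, and the markers also served to assign the cells.

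PT-like proliferating cells held PT markers and cell cycle genes together, as their selection requires. The medians over mice given next compare the CPM of the 366 cells with that of the other PT-like cells of the same mouse, as a description, since proliferation was chosen on these cells. Apart from the rule genes, the 10 largest median ratios among genes of at least 50 CPM began with mitotic genes: Ckap2l, a spindle protein, at a median of 683-fold (255 to 1391 over the 9 mice), Ckap2 at 620.5-fold, the midzone protein Prc1 at 525-fold, the cohesin acetyltransferase Esco2 at 494-fold, and Cdk1, the kinase that drives entry into mitosis, at 457-fold (220 to 1119). Hmmr, Ube2c, Pbk, Cdc20 and the histone gene H3c3 followed at 452-, 425-, 414-, 373- and 372-fold. All were higher in each of the 9 mice except H3c3, which was higher in 8. The promoters of 8 of these 10 genes could be matched, and all 8 held both the CHR and the CCAAT letters shown above for Mki67.

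The whole lists showed the same order. The median ratio of mean CPM was 218 for the 48 G2/M genes, of which 34 were higher in all 9 mice, and 22.3 for the 36 S phase genes, of which 27 were. Over all 16462 genes with a UMI in these cells the median ratio was 1.21 and 4.78% were higher in all 9 mice. Among S phase genes Pcna, the sliding clamp of DNA polymerase, had a median ratio of 14.6 and the helicase subunit Mcm6 one of 11.3, both higher in 9 of 9 mice. The replication stress and recombination repair list stood at 8.68 (8 of 21 genes higher in all mice).

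Chromatin and tubulin genes linked to growth stood higher too. All 9 measured members of this list were higher in all 9 mice, with a median of 7.62. Tubb5, a beta tubulin, stood at 566 against 19.3 CPM (median ratio 29.6), the microtubule destabiliser Stmn1 at 1372 against 57.4 CPM (24.2), the chromatin protein Hmgb2, a G2/M list member, at 893 against 46.9 CPM (20.9), and the histone variant H2az1 at 1554 against 204 CPM (7.25).

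Inhibitors of the cycle were present as well. The list of 14 measured inhibitors had a median ratio of 2.29, with 4 higher and 1 lower in all 9 mice. The one lower was Tob1, an antiproliferative protein, at a median ratio of 0.786, named after its values were seen. Cdkn2d and Cdkn2c, which encode the p19 and p18 inhibitors of Cdk4 and Cdk6, stood at 83.2 against 5.62 CPM and 90.7 against 13.8 CPM, with median ratios of 15.2 and 7.02. Cdkn1a stood at 216 against 41.1 CPM, with a median ratio of 5.39 (1.12 to 8.10), and was higher in 9 of 9 mice. Its ratios rested on only 18, 31 and 4 UMIs in Control mice and on 2 UMIs in AKI-CKD + EGT mouse 3. The D-type cyclin Ccnd1, which acts in G1, differed little (median ratio 1.15, higher in 7 of 9 mice), and the list of 9 G1 cyclins and kinases had a median of 1.36. Of the 25 p53 targets, 3 were higher in all 9 mice, with a median of 1.48.

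Genes of tubule function stood lower. The 13 PT markers had a median ratio of 0.697, and 8 of them were lower in all 9 mice, against 2.18% of all genes; these markers also helped to assign the cells. The phosphate transporter Slc34a1 stood at 3209 against 4168 CPM (median ratio 0.758, lower in 9 of 9 mice) and the endocytic receptor Lrp2 at 924 against 1080 CPM (0.819, lower in 8 of 9). Chosen after their values were seen, as some of the lowest ratios, the androgen-regulated protein gene Kap had a median ratio of 0.425, the organic anion transporter Slc22a6 one of 0.421 and the fatty acid transporter Slc27a2 one of 0.444, each lower in 9 of 9 mice. The median of the PT marker score, in which 1 is about the level of the mean cell, was 0.741 in proliferating and 1.05 in other PT-like cells. Of the 366 cells, 33 had a score under 0.5, near the limit of the class.

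The injury markers differed from each other. The keratins Krt8 and Krt18, raised in stressed epithelium, had median ratios of 3.92 and 5.29 and were higher in 9 of 9 mice. They were the only 2 of 11 measured injury genes to be so, against 4.78% of all genes, and the list had a median of 2.36. Wfdc2, another member, had a median ratio of 0.890 and was lower in 6 of 9 mice. Spp1, which encodes osteopontin, had a median ratio of 1.20. Havcr1, which encodes the injury marker KIM-1, stood at 0.415 CPM in the other PT-like cells, too low for a fall to be detectable at this depth. The mitochondrially encoded genes had a median ratio of 0.844 and the ribosomal protein genes one of 1.12.

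**Figure D4:**
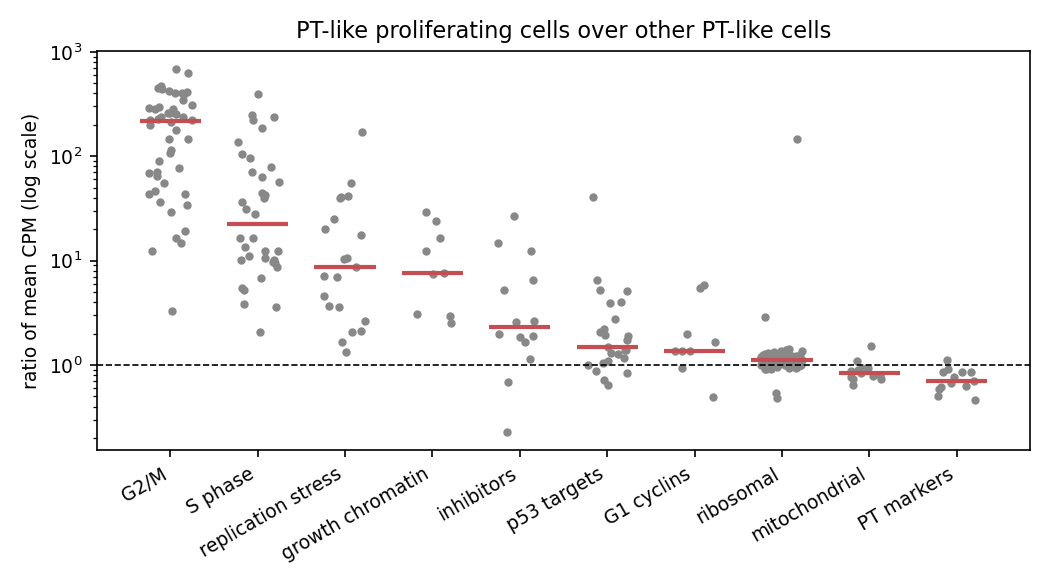
Ratio of mean CPM in PT-like proliferating cells to that in other PT-like cells, on a log scale, for each gene (points) of 10 lists, with the median of each list as a line; genes without a UMI in 1 of the populations are not drawn. The G2/M list has a median of 218 and the S phase list of 22.3, and the PT markers lie lowest, at 0.697.

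AKI-CKD was compared with Control on the proliferating cells summed per mouse, which asks whether the cells that cycle 8 weeks into the model differ from those of a Control kidney. No gene of the S phase or G2/M lists was called, and the tested targets of p53 had values mostly on the higher side in AKI-CKD. At an adjusted p under 0.05, 0 of 5484 genes (0.0%) were called by edgeR's quasi-likelihood test, with 322 (5.87%) at an unadjusted p under 0.05. DESeq2 called 4, namely Cdkn1a, Gdf15, Phlda3 and Ghr. Of the G2/M genes 45 of 48 could be tested, with a median log2 fold change of -0.12 and no call, and of the S phase genes 28 of 36, with a median of 0.15 and no call; the median over all genes was -0.01. When 1 mouse was left out, the S phase median ranged from -0.05 (without Control mouse 1) to 0.26, so that its sign was not stable.

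The p53 target list had 13 of its 25 genes tested, and 11 of the 13 had a log2 fold change above 0, with a median of 0.95. In 7 of them (Bax, Ccng1, Cdkn1a, Gdf15, Phlda3, Sesn2 and Trp53inp1) all 3 AKI-CKD mice lay above all 3 Control mice, against 6.98% of all genes tested. None passed the adjusted threshold with edgeR, and DESeq2 called Cdkn1a, Gdf15 and Phlda3. Genes of the list beyond Cdkn1a, Gdf15, Bax and Phlda3 are named here after their values were seen. A gene passes the filter on low counts more easily where it is high in 1 group, so these counts describe the genes that could be tested and not the whole list.

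Levels of single genes in the proliferating cells of all lineages are given from here on as CPM scaled by TMM, edgeR's correction for composition. Phlda3, a p53 target that restrains the kinase Akt, stood at 2.76, 11.2 and 16.2 CPM in Control mice, 55.9, 112 and 49.9 CPM in AKI-CKD mice and 44.9, 19.6 and 41.2 CPM in AKI-CKD + EGT. All AKI-CKD mice lay above all Control mice. The log2 fold change was 2.96 ± 0.56 (SE; edgeR, adjusted p = 0.292).

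Gdf15, which encodes a stress-induced hormone of the TGF-beta family, stood at 254, 259 and 119 CPM in Control mice, 298, 1095 and 649 CPM in AKI-CKD mice and 557, 645 and 577 CPM in AKI-CKD + EGT. AKI-CKD mouse 1 lay only just above the Control mice. The log2 fold change was 1.67 (edgeR, adjusted p = 0.412), and it was called without AKI-CKD mouse 1 (adjusted p = 0.0452).

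Ccng1, which encodes cyclin G1, stood at 33.1, 40.2 and 81.1 CPM in Control mice and at 126, 114 and 108 CPM in AKI-CKD. In AKI-CKD + EGT it stood at 62.9 and 73.3 CPM and was not detected in mouse 3, whose summed cells were the shallowest. The AKI-CKD mice were alike and above the others.

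In the PT-like proliferating cells alone, 1 of 5488 genes (0.0182%) was called between AKI-CKD and Control, with 347 (6.32%) at an unadjusted p under 0.05, and it was Cdkn1a. Its UMIs in these cells numbered 18, 31 and 4 in Control mice, 66, 317 and 157 in AKI-CKD mice, compared with 81, 17 and 2 in AKI-CKD + EGT. As CPM without that scaling this was 53.2, 80.2 and 22.9 in Control mice, 332, 711 and 351 in AKI-CKD mice, compared with 269, 83.2 and 40.3 in AKI-CKD + EGT. Every AKI-CKD mouse lay above every Control mouse, and the AKI-CKD + EGT mice spread from the Control range to just below that of AKI-CKD. The log2 fold change was 3.05 ± 0.43 (SE; 3 mice in each group; edgeR's quasi-likelihood test, adjusted p = 0.0157), so that Cdkn1a was higher in AKI-CKD.

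The difference was seen in the number of cells as well as in their sum. A Cdkn1a UMI was present in 5 of 51, 9 of 56 and 3 of 35 PT-like proliferating cells of Control mice, in 10 of 31, 36 of 54 and 32 of 61 of AKI-CKD mice, and in 22 of 43, 6 of 25 and 1 of 10 of AKI-CKD + EGT mice. With every cell thinned to 2000 UMIs the shares of cells were 2.22, 1.96 and 3.70% in Control mice, 13.8, 51.0 and 34.0% in AKI-CKD mice, compared with 36.1, 14.3 and 0.0% in AKI-CKD + EGT. The AKI-CKD mice again lay above the Control mice. In other PT-like cells of the same mice, thinned alike, they were 1.62, 1.53 and 0.701%, then 5.33, 11.2 and 9.05%, then 4.84, 2.66 and 4.60%. The cell richest in Cdkn1a held 10.2% of its UMIs in these cells.

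The call was lost without Control mouse 1 (log2 fold change 3.00, adjusted p = 0.0899) and without AKI-CKD mouse 2 (2.61, adjusted p = 0.08645), and was kept without any other single mouse, with DESeq2 (adjusted p = 7.147e-08) and in cells with 2 or more rule genes (2.99, adjusted p = 0.01254). When all lineages were summed together, the log2 fold change of Cdkn1a was 2.14 (edgeR, adjusted p = 0.412), with 74.5, 192 and 97.3 CPM in Control mice, 335, 838 and 460 CPM in AKI-CKD mice and 425, 137 and 82.4 CPM in AKI-CKD + EGT. Distal-like proliferating cells held Cdkn1a at 683 CPM and Myeloid-like ones at 728 CPM, pooled over mice, against 109 and 521 CPM in other cells of the same classes.

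Cdkn1a in other PT-like cells separated the same groups. It stood at 11.7, 9.91 and 4.25 CPM in Control mice, 46.6, 119 and 80.5 CPM in AKI-CKD mice and 43.1, 19.0 and 36.1 CPM in AKI-CKD + EGT. The log2 fold change of AKI-CKD over Control in them was 3.33 ± 0.47 (SE; edgeR, adjusted p = 0.0707), and the difference between the 2 changes was -0.14 ± 0.29 (SE; edgeR, unadjusted p = 0.619), which does not show that they were equal. Within each mouse, the proliferating cells held Cdkn1a at 4.35 to 8.10 times the CPM of the other PT-like cells, except in AKI-CKD + EGT mouse 3, where the ratio was 1.12 on 2 UMIs. In Control mice the ratios rested on 5, 9 and 3 cells with a Cdkn1a UMI. With cells thinned to 2000 UMIs, the Control shares of 2.22, 1.96 and 3.70% stood against 1.62, 1.53 and 0.701% in other PT-like cells.

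**Figure D5:**
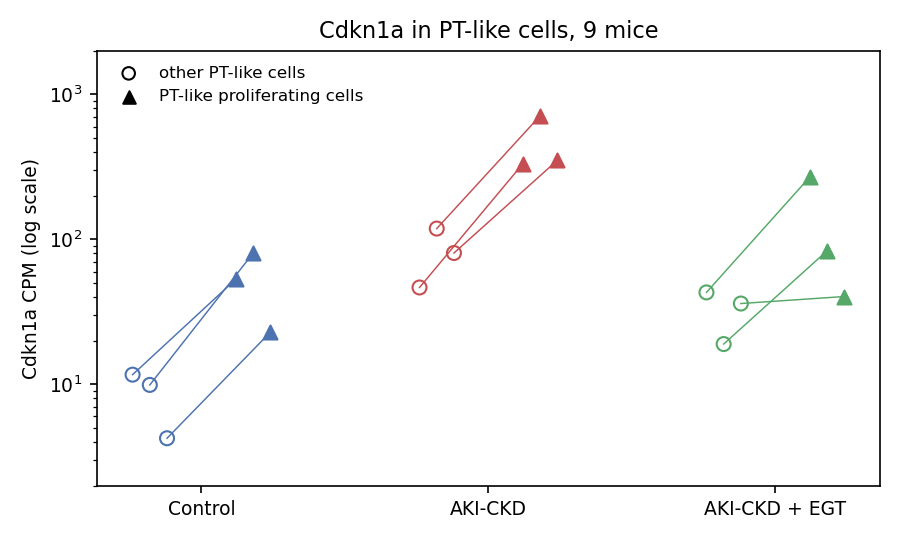
CPM of Cdkn1a, on a log scale, in PT-like proliferating cells (triangles) and other PT-like cells (circles) of each of the 9 mice; a line joins the 2 populations of a mouse. The AKI-CKD triangles stand at 332 to 711 CPM, above the Control triangles at 22.9 to 80.2 CPM, and the AKI-CKD + EGT triangles spread from 40.3 to 269 CPM.

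A promoter window of Cdkn1a is shown because this was the only gene called by edgeR between AKI-CKD and Control in PT-like proliferating cells. The window is that of its upstream annotated start, and was chosen because it holds the letters of a p53 site. Capitals mark a pair of CATG cores with any 6 bases between them, a form of the p53 motif that reads the same on both strands.
Cdkn1a (chr17:29090729-29091028 of GRCm38.p6, plus strand): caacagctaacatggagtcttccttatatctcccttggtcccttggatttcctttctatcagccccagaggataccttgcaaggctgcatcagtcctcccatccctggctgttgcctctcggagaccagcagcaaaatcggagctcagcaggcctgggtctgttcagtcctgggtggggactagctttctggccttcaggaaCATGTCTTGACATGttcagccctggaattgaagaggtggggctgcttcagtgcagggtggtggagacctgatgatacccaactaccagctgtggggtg
A second annotated start of the gene, with a window at chr17:29093519-29093818 of the same build, held no match. The letters were found in 225 of 27025 genes (0.833%), and among the 17 of 25 listed p53 targets with a window in Cdkn1a alone.

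The p53 target list was described in the same cells by the genes that could be tested. Of its 13 tested genes, Cdkn1a included, 12 had a log2 fold change above 0, with a median of 1.37, and in 9 the mice of the groups did not overlap, against 6.78% of all genes tested. A gene high in 1 group passes the filter on low counts more easily here too, so these counts do not describe the whole list. Trp53inp1, which encodes a p53-induced nuclear protein, stood at 9.47, 5.63 and 6.34 scaled CPM in Control mice, 27.9, 38.2 and 44.5 CPM in AKI-CKD mice, and 40.0 and 45.5 CPM in the 2 AKI-CKD + EGT mice with enough cells. Its log2 fold change was 2.32 (edgeR, adjusted p = 0.514). In other PT-like cells 9 of 18836 genes (0.0478%) were called, and 3 of them were listed p53 targets. Phlda3 was one, with a log2 fold change of 3.16 (adjusted p = 0.0292) against 2.98 (adjusted p = 0.407) in proliferating ones. The epoxide hydrolase gene Ephx1 was another, with 2.95 (adjusted p = 0.0218) against 3.77 (adjusted p = 0.514). Psrc1, a microtubule protein and the third listed target called there, had a log2 fold change of 2.45 (adjusted p = 0.0292) in other PT-like cells and 0.60 (adjusted p = 0.891) in proliferating ones, with a difference between the 2 changes of -1.82 ± 0.85 (SE; edgeR, unadjusted p = 0.0322, adjusted p = 1.0). These members were named after their values were seen.

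Among the 4 genes of the rule, Cenpf was the one whose level differed most between the groups. Its unscaled CPM was 484, 254 and 467 in Control mice, 127, 139 and 177 in AKI-CKD mice, compared with 159, 186 and 310 in AKI-CKD + EGT. Within cells with 2 or more rule genes it was 266, 255 and 246 in Control mice, 140, 127 and 128 in AKI-CKD mice, compared with 172, 190 and 178 in AKI-CKD + EGT. The 3 groups did not overlap there. Because Cenpf helped to choose the cells, these levels are a description. Mki67 stood at 385 to 396 CPM in Control mice, 332 to 418 CPM in AKI-CKD mice and 232 to 563 CPM in AKI-CKD + EGT.

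Ghr and Alas1 were among the genes of smallest p on the lower side in AKI-CKD. Neither passed the adjusted threshold with edgeR, and DESeq2 called Ghr. Ghr, the growth hormone receptor, stood at 224, 168 and 281 CPM in Control mice, 97.8, 64.8 and 77.0 CPM in AKI-CKD mice and 117, 171 and 165 CPM in AKI-CKD + EGT. The AKI-CKD mice lay below all others (log2 fold change -1.50, edgeR, adjusted p = 0.292). Alas1, the first enzyme of haem synthesis, stood at 243, 130 and 211 CPM in Control mice, 74.5, 70.6 and 87.4 CPM in AKI-CKD mice and 44.9, 63.5 and 27.5 CPM in AKI-CKD + EGT. Both cisplatin groups lay below Control (log2 fold change -1.31, edgeR, adjusted p = 0.412).

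On the higher side, Rnaseh2c, a subunit of the enzyme that removes ribonucleotides from DNA, had values that lay close together within each group. It stood at 177, 179 and 184 CPM in Control mice, 303, 298 and 291 CPM in AKI-CKD mice and 303, 288 and 344 CPM in AKI-CKD + EGT. Mice of 1 group differed less than Control and the cisplatin groups did (log2 fold change 0.73, edgeR, adjusted p = 0.682), but genes were not ranked by this spread. S100g, which encodes a calcium-binding protein of the distal tubule, had a log2 fold change of 3.01 (edgeR, adjusted p = 0.412), but 35.4% of its UMIs came from 1 cell. The interferon-induced gene Ifi27 had a log2 fold change of 1.36 (edgeR, adjusted p = 0.605).

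The ribosomal protein genes lay higher in AKI-CKD as a group, with no single call. Of 89 listed genes 85 were tested, all 85 had a log2 fold change above 0, with a median of 0.35, and in 51 the groups did not overlap, against 6.98% of all genes. These genes can move together from mouse to mouse, so the 51 are not 51 separate observations. Rpl41, the smallest protein of the large subunit, stood at 4527, 5392 and 4170 CPM in Control mice and 8212, 7435 and 6283 CPM in AKI-CKD. Rpl37a had a log2 fold change of 0.75 (edgeR, adjusted p = 0.412). Ribosomal protein genes share reads with many processed copies, so their single counts are uncertain. Other PT-like cells had values on the same side, with Rpl41 at a log2 fold change of 0.51 there (edgeR, adjusted p = 0.2744), and the difference between the PT-like populations had a median of -0.04 over 88 genes, none called. The mitochondrially encoded genes moved the other way in their median (-0.50 for 11 tested genes, none called, and -0.06 without Control mouse 1, -0.19 without AKI-CKD mouse 2, -0.91 without Control mouse 3 and -0.96 without AKI-CKD mouse 1), with wide spread: mt-Co1 stood at 11060, 6081 and 2504 CPM in Control mice and 6806, 3126 and 3744 CPM in AKI-CKD. Their part in the ribosomal values was not tested.

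The remaining lists held no edgeR call in the proliferating cells of all lineages, and DESeq2 called Cdkn1a, which is also in the inhibitor list. Median log2 fold changes were 0.09 for growth-linked chromatin and tubulin (9 of 11 tested), -0.12 for G1 cyclins and kinases (5 of 9), 0.20 for inhibitors (9 of 15), -0.19 for replication stress and recombination repair (6 of 22), 0.45 for tubule injury (8 of 14) and 0.37 for dissociation and immediate early genes (13 of 14). When 1 mouse was left out, these medians ranged from -0.10 to 0.21 for growth-linked genes, -0.39 to 0.39 for G1 genes, 0.07 to 0.41 for inhibitors, -0.50 to -0.06 for repair, 0.14 to 0.64 for tubule injury and -0.22 (without AKI-CKD mouse 2) to 0.68 for dissociation genes. Of the injury genes, Spp1 stood at 453, 262 and 411 CPM in Control mice and 848, 687 and 499 CPM in AKI-CKD (log2 fold change 0.85, edgeR, adjusted p = 0.774). Fos, an immediate early gene that also responds to tissue dissociation, spread from 287 to 1095 CPM in Control and from 126 to 1048 CPM in AKI-CKD.

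AKI-CKD + EGT was compared with AKI-CKD to ask which genes of proliferating cells differed with EGT. In the proliferating cells of all lineages edgeR called 0 of 5484 genes (0.0%), with 250 (4.56%) at an unadjusted p under 0.05, and DESeq2 called 0. Both comparisons share the AKI-CKD mice, so values that lie apart in the first tend to lie apart in the second. The median log2 fold change of the G2/M list was 0.20, and ranged from 0.12 (without mouse 2 of the EGT group) to 0.37 (without mouse 3) when 1 mouse was left out. The S phase list had a median of -0.09, which ranged from -0.45 to 0.07 when 1 mouse was left out and lay above 0 without AKI-CKD mouse 2 or without mouse 2 or 3 of the EGT group. The p53 targets had a median of -0.21, with 2 of 13 tested genes lower without overlap, against 6.64% of all genes. This median turned to 0.30 without AKI-CKD mouse 2 and was -0.70 without AKI-CKD + EGT mouse 1.

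In PT-like proliferating cells edgeR called 0 of 5488 genes (0.0%), with 243 (4.43%) at an unadjusted p under 0.05, and DESeq2 called 0. AKI-CKD + EGT mouse 3, with 10 such cells, was left out of this fit, so 2 mice stand against 3. Cdkn1a had a log2 fold change of -1.47 ± 0.44 (SE; edgeR, adjusted p = 0.976), from the values by mouse given above. With no filter on low counts it was called, at -1.49 (edgeR, adjusted p = 0.004586), whereas DESeq2 did not call it (adjusted p = 0.9996). The value was -2.58 without AKI-CKD + EGT mouse 1 and -0.91 without mouse 2, each with 1 mouse left in that group. The G2/M list had a median of 0.38 (0.30 to 0.42 when 1 mouse was left out), with 38 of 44 tested genes above 0, 18 higher and 2 lower without overlap, and none called. Of all genes, 11.1% were higher without overlap. AKI-CKD + EGT mouse 3, absent here, had the lowest G2/M sum of its group in the proliferating cells of all lineages (4568 CPM). With that mouse, in all lineages, 4 of 45 G2/M genes were higher and 2 lower without overlap, and none was called. Of all genes, 6.64% were lower without overlap there. These counts are a description and are not read as a result about the list. The p53 targets had a median of -0.49 in PT-like proliferating cells (-0.95 to 0.18 when 1 mouse was left out), with 4 of 13 tested genes above 0.

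The ribosomal protein genes lay lower in AKI-CKD + EGT. Their median log2 fold change was -0.36, 4 of 85 were above 0, and 47 were lower without overlap, against 6.64% of all genes, with none called. The 47 are not separate observations, and the AKI-CKD mice are the same as in the comparison with Control. Rpl41 stood at 4188, 4350 and 3628 CPM, close to the Control values above and below all AKI-CKD mice (log2 fold change -0.85, edgeR, adjusted p = 0.912). Rps19, a small subunit protein, stood at 1877, 1797 and 1871 CPM in AKI-CKD mice and 1222, 943 and 1306 CPM in AKI-CKD + EGT, and at 1203, 1335 and 1357 CPM in Control (log2 fold change -0.68, edgeR, adjusted p = 0.977). In other PT-like cells Rpl41 had a log2 fold change of -0.73 and Rps19 one of -0.76 (edgeR, adjusted p = 0.6237 for both), and the median difference between the PT-like populations was -0.01 over 88 genes. The mitochondrially encoded genes had a median of 0.61, with mt-Co1 at 4416, 5973 and 13870 CPM in AKI-CKD + EGT, highest in mouse 3. That median was 0.06 when this mouse was left out, 0.31 when AKI-CKD mouse 2 was and 1.08 when AKI-CKD mouse 1 was, and in PT-like proliferating cells, whose fit left mouse 3 out, it was 0.00.

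Among single genes on the lower side, Lonp1, the main protease of the mitochondrial matrix, stood at 83.8, 114 and 122.8 CPM in AKI-CKD mice and 27.0, 53.8 and 41.2 CPM in AKI-CKD + EGT, with 132, 96.1 and 103 CPM in Control. The AKI-CKD + EGT mice lay below all others (log2 fold change -1.47, edgeR, adjusted p = 0.912). Clu, which encodes the secreted chaperone clusterin, stood at 69.9, 118 and 77.0 CPM in AKI-CKD mice and 21.0, 14.7 and 13.7 CPM in AKI-CKD + EGT (log2 fold change -2.32, edgeR, adjusted p = 0.912). Control mice spread over 16.2 to 64.8 CPM and overlapped the AKI-CKD + EGT mice, and 1 cell held 34.0% of all Clu UMIs.

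On the higher side, the transcriptional repressor gene Bhlhe40 stood at 18.6, 25.5 and 22.9 CPM in AKI-CKD mice and 50.9, 83.1 and 82.4 CPM in AKI-CKD + EGT (log2 fold change 1.57, edgeR, adjusted p = 0.977). Prim1, the catalytic subunit of DNA primase, stood at 27.9, 52.98 and 43.7 CPM in AKI-CKD mice and 111, 117 and 54.97 CPM in AKI-CKD + EGT (log2 fold change 1.22, edgeR, adjusted p = 0.977). The groups did not overlap for either gene, although mouse 3 of AKI-CKD + EGT lay barely above AKI-CKD for Prim1. Ddit3, which encodes the stress factor CHOP, stood at 79.2, 214 and 146 CPM in AKI-CKD mice and 249, 445 and 508 CPM in AKI-CKD + EGT (log2 fold change 1.36, edgeR, adjusted p = 0.977). In PT-like proliferating cells alone, as unscaled CPM, Ddit3 stood at 236, 64.7 and 68.6 in Control mice. Control mouse 1 lay above all AKI-CKD mice there, which stood at 80.5, 213 and 147 CPM.

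Whether a group difference in PT-like proliferating cells differed from that in other PT-like cells was tested in 1 model of both populations. For AKI-CKD against Control 0 of 16527 genes (0.0%) were called by edgeR, with 577 (3.49%) at an unadjusted p under 0.05, and DESeq2 called 0. For AKI-CKD + EGT against AKI-CKD 7 genes (0.0424%) were called, 6 (0.0363%) with a positive and 1 (0.00605%) with a negative difference, with 573 (3.47%) at an unadjusted p under 0.05, 323 (1.95%) of them with a negative difference, and DESeq2 called 2, Ttr and Ddit3. Ttr encodes transthyretin, a carrier of thyroid hormone and retinol. Its ratio of proliferating to other PT-like cells was 0.190, 0.485 and 0.671 in Control mice, 0.682, 1.02 and 0.513 in AKI-CKD mice, compared with 0.176 and 0.0808 in AKI-CKD + EGT, and the difference was -2.55 ± 0.30 on the log2 scale (SE; 2 mice against 3; adjusted p = 1.7e-13 with edgeR and 0.03768 with DESeq2). The AKI-CKD + EGT mice had the lowest ratios, although Control mouse 1 was close to them. In PT-like proliferating cells Ttr rested on 22 and 7 UMIs in AKI-CKD + EGT mice 1 and 2. For each gene the fit takes 1 estimate of the spread for sums of few and of many cells. The SE and p of Ttr, and those of Ddit3 below, are therefore not a direct measure of the spread of the ratios between mice.

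The ratio of Ddit3 was 1.37, 1.14 and 1.15 in Control mice, 0.826, 2.12 and 1.55 in AKI-CKD mice, compared with 4.07 and 6.47 in AKI-CKD + EGT. The difference was 1.67 ± 0.26 on the log2 scale (SE; adjusted p = 1.0e-06 with edgeR and 0.03768 with DESeq2), and both AKI-CKD + EGT mice lay above all others. The share of PT-like proliferating cells with a Ddit3 UMI did not separate the groups: it was 29.0, 42.6 and 45.9% for AKI-CKD and 44.2 and 40.0% for AKI-CKD + EGT mice 1 and 2, with 2 of 10 cells in mouse 3, and 10.3, 22.4 and 26.4% against 27.8, 19.0 and 11.1% with cells thinned to 2000 UMIs. The share with a Ttr UMI was 12.9, 16.7 and 26.2% for AKI-CKD and 18.6 and 24.0% for AKI-CKD + EGT mice 1 and 2, with 1 of 10 cells in mouse 3, and these overlapped as well. Ddit3 was not called without AKI-CKD + EGT mouse 2 (1.38, adjusted p = 0.1004). Ttr was called in every fit that left out 1 mouse, but without AKI-CKD + EGT mouse 1 or 2 a single mouse of that group remained, and it was assumed to vary like the others.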

How the data were processed

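Droplet-based single-cell RNA libraries were made from the kidneys of 9 mice, with poly(dT) capture. The deposited matrices hold raw UMI counts per gene and cell, made by the authors with PISA 1.0 on genome build GRCm39 according to the submitters' processing notes, with no normalization. Filtering, lineage assignment and summing of counts per mouse were done here (Python 3.11.15, numpy 2.4.6, scipy 1.17.1, pandas 2.3.3). Cells were kept as stated in the report and no doublet caller was run. Cells with markers of more than 1 lineage were set aside as mixed, and leaving them out was an alternative.

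A cell was put in a lineage with at least 3 UMIs over at least 2 of its markers, at 5 times the mean of its library, and in the PT-like class with at least 3 PT markers at 0.3 of the library mean and no other lineage; these limits were chosen after the data were seen. The rule, gene lists and members were chosen with earlier results of these data known.

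Shares were compared by two-sided exact permutation tests over mice. Summed counts were tested with edgeR 4.0.16 (R 4.3.3, TMM scaling, filterByExpr, quasi-likelihood F test, Benjamini-Hochberg adjustment over all genes tested, threshold 0.05), with DESeq2 1.42.0 as an alternative. All 9 mice shared 1 estimate of the spread, and fits of PT-like cells used the 8 mice with at least 20 PT-like proliferating cells. The labels give replicate numbers 1 to 3, and the study states that each group had 3 biological replicates, taken here as separate animals. Deviations from group means of same-numbered mice correlated between -0.205 and 0.198 over 9 pairs, so the numbers were not taken as pairs.

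Named genes were those called whose mice did not overlap and whose average level reached a log2 CPM of 5, otherwise up to 10 each way by smallest p with the same limits, given as values, together with the 3 highest members of each list and the 10 largest ratios above 50 CPM. The fits were checked on simulated counts, the interaction for AKI-CKD against Control only and with a fixed dispersion for all genes. Of 200 genes changed by 1 on the log2 scale, 28 and 16 were recovered in proliferating cells in the 2 comparisons. In PT-like ones 1 and 6 were recovered, and 0 in the interaction. With a change of 2 the counts were 159 and 142, 153 and 136, and 49. A gene that was not called can therefore have changed. Intervals and limits cover counting error only.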

Additional observations from a re-analysis of the deposited data

Results flagged for a closer look

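For 7 genes the difference between AKI-CKD + EGT and AKI-CKD in PT-like proliferating cells was not the same as in other PT-like cells, by edgeR's test of the interaction, over 2 mice of AKI-CKD + EGT and 3 of AKI-CKD. Their p-values are not a direct measure of the spread between mice, for the reason given with Ttr above. Ttr differed by -2.55 on the log2 scale (adjusted p = 1.7e-13 with edgeR and 0.03768 with DESeq2). In other PT-like cells alone the change of Ttr was 0.74 (adjusted p = 0.664). Leaving out each mouse in turn gave Ttr differences from -3.35 to -2.09, both from fits with a single AKI-CKD + EGT mouse.

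Ddit3 differed by 1.67 (adjusted p = 1.0e-06 with edgeR and 0.03768 with DESeq2), and its change in other PT-like cells was -0.71 (adjusted p = 0.690). Cplane1, which encodes a ciliary protein, differed by 2.03 (adjusted p = 0.0287). The ratio of Cplane1 in proliferating to other PT-like cells was 5.58 and 8.81 in AKI-CKD + EGT and 1.74, 1.38 and 1.96 in AKI-CKD. The Cplane1 call was lost without AKI-CKD mouse 1, 2 or 3 (2.03, 1.87 and 2.20, adjusted p = 0.07397, 0.1377 and 0.0735), without AKI-CKD + EGT mouse 2 (1.73, adjusted p = 1.0) and with DESeq2 (2.09, adjusted p = 0.07542).

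The other 4 genes had a larger part of their UMIs in 1 cell than Ttr (9.42%) and Ddit3 (8.50%). Gid4 differed by 3.31 (adjusted p = 7.6e-06), with 57.9% of its UMIs in 1 cell, and by 0.95 (adjusted p = 1.0) without AKI-CKD + EGT mouse 2. Gfod2 differed by 3.43 (adjusted p = 0.0287), with 44.1% of its UMIs in 1 cell. Gm11290 differed by 2.10 (adjusted p = 0.0300), with 26.4% in 1 cell, and Gm22146 by 2.29 (adjusted p = 0.0408), with 44.8% in 1 cell. None of the 4 was called without AKI-CKD + EGT mouse 2.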

How the results depend on the processing

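Of 2421 recomputed values, those that answer a comparison were counted as the same in 456 cases, as moved in 27 and as reversed in 9. A share difference was counted as the same whenever its sign held, whatever its size. The AKI-CKD minus Control share thus counted as the same at 0.00366 without AKI-CKD mouse 2, beside 0.0398 with all mice. The other values were those of single genes and of list medians in PT-like proliferating cells. They stayed in 1825 cases, moved in 49, lost the call in 20, gained one in 33 (with no filter on low counts, with DESeq2 or without 1 mouse) and reversed in 2. The cause was not tested except where fewer genes or mice entered the fit. For AKI-CKD minus Control, the Endo-like share was -0.388 percentage points with cells thinned to 2000 UMIs and -0.172 with cells thinned to 1000, and -0.172 to 0.252 when 1 mouse was left out, on 2 cells in all. The PT-like share was -0.005481 with thinning to 2000, and the distal-like share 0.0231 with a limit of 2 UMIs and -0.292 to 0.0305 when 1 mouse was left out. With no filter on low counts edgeR called 42 (AKI-CKD against Control) and 31 genes (AKI-CKD + EGT against AKI-CKD) in proliferating cells, 48 and 19 in PT-like proliferating cells, and 1 for the interaction in AKI-CKD against Control. DESeq2 called 4 genes in proliferating cells for AKI-CKD against Control and 2 for the interaction with EGT, and leaving out mixed cells gave 2 calls with EGT, Ifitm3 and S100a4.

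Leaving out 1 mouse gave 0 to 2 calls in proliferating cells for AKI-CKD against Control (2 without AKI-CKD mouse 1, Gdf15 and S100g), 0 to 2 in PT-like ones (0 without Control mouse 1 or AKI-CKD mouse 2, 2 without Control mouse 2 or 3) and 0 to 3 with EGT (3 without AKI-CKD + EGT mouse 1). The interaction gave 0 to 11 calls for AKI-CKD against Control (11 without Control mouse 3, 10 without Control mouse 1, 9 without AKI-CKD mouse 3, 5 without AKI-CKD mouse 2) and 3 to 21 with EGT (21 without AKI-CKD mouse 2, 16 without AKI-CKD + EGT mouse 1, 3 without AKI-CKD + EGT mouse 2). The G1 list median ranged from -0.39 to 0.39 and, with EGT, from -0.23 to 0.36, and the ribosomal median with EGT from -0.44 to -0.27. Gfod2 ranged from -10.32 to 4.83 and Gm22146 from -12.15 to 3.79, each reversed without AKI-CKD + EGT mouse 2.

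With a replicate block the share differences had exact sign-flip p-values of 0.75 and 0.5, edgeR called 0 and 0 genes in proliferating cells and 1 and 0 in PT-like ones, and Cdkn1a had a log2 fold change of 3.14; the block changed no call in these comparisons. Depth limits single genes: 5484 of the genes passed the filter on low counts in the 446 cells, and 10 PT-like cells in AKI-CKD + EGT mouse 3 were too few for a fit.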

Other observations

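For the 13 mitochondrially encoded genes, the interaction of AKI-CKD + EGT against AKI-CKD in PT-like proliferating and other PT-like cells had a median of -0.46 on the log2 scale, over 2 mice with EGT, since mouse 3 did not enter the fit. Of the 13, 1 was above 0, 11 were lower at an unadjusted p under 0.05, against 1.95% of all genes, and none was called, and in 0 of 13 did the mice lie apart without overlap. The median over all 16527 genes was -0.09. The 13 genes can move together from mouse to mouse, so the 11 are not 11 separate observations.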
